A study of Mus musculus with 4 samples.

Results

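The cells described here are Foxq1+ Spock2+ endothelial cells of the mouse embryo, 930 of 18576 endothelial cells (5.01%) in single-cell RNA sequencing data. A cell was a member when it held at least 1 UMI (a molecular tag that counts 1 captured RNA molecule) of Cdh5, Foxq1 and Spock2, no UMI of Gja5, at least 1000 detected genes and under 10% of its UMIs from mitochondrial genes. Cdh5 encodes VE-cadherin, the adhesion protein of endothelial junctions. Foxq1 encodes a forkhead transcription factor, Spock2 a secreted matrix proteoglycan and Gja5 the arterial connexin 40. Because these 4 genes chose the cells, their levels are given as description only. The 4 libraries (WT replicates 1 and 2, then KO replicates 1 and 2, the order in which library values follow throughout) held 96, 334, 92 and 408 members.

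Cells positive for CD31 (an endothelial surface protein) and negative for the blood cell marker given as C45 in the labels were sorted from the aorta-gonad-mesonephros region (AGM) of embryos at embryonic day 10.5, wild type (WT, 2 libraries) or miR-223-/- mutant (KO, 2 libraries). The AGM is the trunk region around the dorsal aorta in which the first blood stem cells form. The WT and KO embryos were age-matched, no other allele or treatment is named, and each group rests on 2 libraries of sorted pools. The labels do not say whether libraries came from separate litters, so p-values reflect only how far these libraries vary, some of which may be technical. The comparison groups were the 1985 cells with Cdh5 and Foxq1 but no Spock2 UMI, of any Gja5 level (called Foxq1+ Spock2- cells), and the 15661 remaining Cdh5+ cells. Levels are UMIs summed over the cells of a class in 1 library, divided by all UMIs of that sum and given as CPM. These are 3' end counts, so levels are compared between cells and not between genes.

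Capillaries of the central nervous system form a barrier, in which the endothelial cells are joined by continuous tight junctions, hold few transport vesicles and carry dedicated transporters for glucose, amino acids, iron and lipids. During development this state is set by Wnt ligands of neural tissue that act through the receptor Fzd4 with its partners Tspan12, Adgra2 and Reck, and through beta-catenin with the transcription factors Lef1 and Tcf7. Foxq1 and Foxf2 are transcription factors known from such vessels, Mfsd2a carries lysolipids and restrains vesicle transport, Stra6 is a cell surface receptor for retinol uptake, Apod is a lipid carrier and Htra3 is a secreted protease.

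miR-223, the microRNA deleted in the KO embryos, is known for its role in myeloid blood cells. Its mature sequences are printed because they define the genotype, with the seed (bases 2 to 8) in capitals. They lie on the plus strand of chromosome X, at chrX:96242842-96242864 and chrX:96242884-96242905 (RefSeq, GRCm38.p6).
mmu-miR-223-5p: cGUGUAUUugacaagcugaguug
mmu-miR-223-3p: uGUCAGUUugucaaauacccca

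Windows around the Wnt-response motif bound by Lef1 and Tcf7 (CTTTGAT, or ATCAAAG where it lies on the other strand, in capitals) are printed for 2 genes on which the results below turn, Stra6 and the receptor gene Tnfrsf19. They were searched from 250 bases before to 50 after each RefSeq start site (GRCm38.p6), and both are printed on the strand of the gene. The Stra6 window is chr9:58129193-58129221 (plus strand), with the first base of the motif 145 bases before the start. The Tnfrsf19 window is chr14:61038172-61038200 (minus strand), with that base 202 before. The Stra6 window lies inside the GENCODE span given for the gene below.
Stra6: gaaactcagccATCAAAGccctggcttct
Tnfrsf19: ctgaatgggggATCAAAGtgacaaactag
The motif was present in 3.73% of all 32851 promoter windows. The other shares count genes, with a match in any window of the gene, and so are in another unit. The motif was present for 2.88% of the 8842 genes with a window among those tested against Foxq1+ Spock2- cells. It was present for 4.31% of the 116 such genes at least 2-fold higher in the members and for 4.44% of the 90 at least 2-fold lower. A match is a description of the letters, not a binding site.

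The members were somewhat shallower than Foxq1+ Spock2- cells of their own library. Their median was 25896.5, 18176.5, 20463 and 17988.5 UMIs per cell, against 34754, 20649.5, 20729.5 and 20627 in Foxq1+ Spock2- cells. Median mitochondrial shares were 6.85%, 5.50%, 6.15% and 6.52%, against 5.86%, 4.97%, 5.70% and 5.86%. The share scored as doublets was 5.21% to 10.9% of the members and 6.18% to 15.6% of the Foxq1+ Spock2- cells. Pan-endothelial markers summed to 6155 to 6833 CPM in the members. Markers of mural cells summed to 15.5 to 25.5 CPM, of mesenchyme to 12.1 to 50.6 CPM and of macrophages to 4.93 to 7.85 CPM, with Higd1b, Adgre1, C1qa and C1qc at 0. Neural markers summed to 288 to 355 CPM, most of it Nes (171 to 229.7 CPM), which endothelial cells also express. The neuronal gene Tubb3 reached at most 1.34 CPM. Epithelial markers summed to 76.0 CPM in WT replicate 1 and to at most 9.41 CPM in the other libraries. In that library 1 cell held all 39 UMIs of Cldn6 and all 40 of Krt8. No cell barcode was shared between members of different libraries, and 8 to 28 barcodes of all cells were shared per pair of libraries.

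Foxq1 and Spock2 together were rarer outside the endothelium, but Spock2 alone was not in every library. Among cells with no UMI of Cdh5, Pecam1 or Kdr, Foxq1 and Spock2 occurred together in 0 of 231, 4 of 322, 2 of 578 and 0 of 292 cells, at median depths of 23447, 9583.5, 16916 and 12191.5 UMIs. Among all Cdh5+ cells they occurred together in 5.13%, 5.10%, 2.68% and 7.42%. A count of 0 among 231 cells allows a share of up to 1.30%, taken as 3 counts of the total. Spock2 by itself was seen in 5.19%, 6.83%, 5.71% and 7.19% of the cells with no UMI of Cdh5, Pecam1 or Kdr, and in 7.29%, 7.18%, 3.86% and 10.1% of all Cdh5+ cells. In KO replicate 1 it was thus more frequent outside the endothelium. Foxq1 by itself was seen in 1.73% to 3.73% and in 13.2% to 18.3%.

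The 4 genes that give the population its name beside the gate genes were high in the members of every library. Htra3 (chr5:35652023-35679782, minus strand, GENCODE M21, GRCm38) stood at 77.6, 73.1, 66.3 and 91.8 CPM, against 7.58, 11.2, 12.2 and 12.8 CPM in Foxq1+ Spock2- cells and 1.26 to 1.89 CPM in the other Cdh5+ cells. Stra6 (chr9:58063788-58153996, plus strand) stood at 124, 124, 155 and 144 CPM, against 13.1, 16.1, 24.2 and 21.6 and 2.33 to 4.38 CPM. Mfsd2a (chr4:122946850-122961188, minus strand) stood at 39, 46.9, 20.2 and 47.1 CPM, against 4.27, 3.56, 5.11 and 4.61 and 0.672 to 1.29 CPM. For all 3 genes the lowest member library lay above the highest library of either comparison group, and Mfsd2a was lowest by far in KO replicate 1. Apod (chr16:31296192-31314808, minus strand) stood at 35.9, 42.3, 24.6 and 50 CPM, against 3.17, 6.81, 6.36 and 5.64 and 0.75 to 1.62 CPM, again without overlap. Over the 4 libraries the members held 6.95 times as much Htra3, 7.24 times as much Stra6, 9.53 times as much Mfsd2a and 7.02 times as much Apod as Foxq1+ Spock2- cells. Since these genes were chosen as markers with results of these data known, the values describe the population and are not a test of it.

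**Figure D1:**
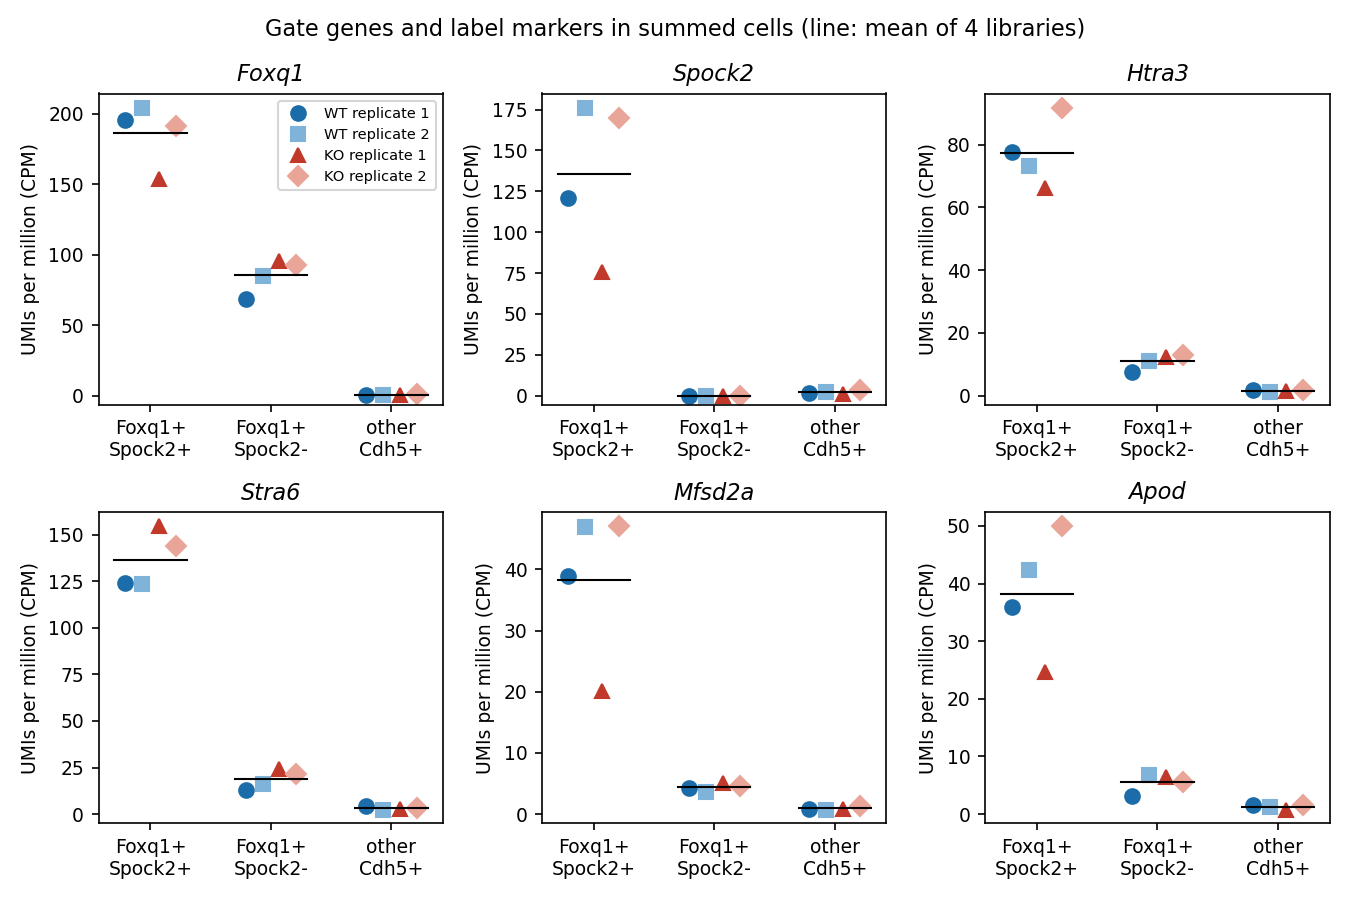
Levels of the marker genes in CPM (vertical axes) in Foxq1+ Spock2+ cells, Foxq1+ Spock2- cells and other Cdh5+ cells (horizontal axes), with 1 point per library (WT and KO marked) and a line at the mean of the 4 libraries. Foxq1 and Spock2 chose the cells; Htra3, Stra6, Mfsd2a and Apod did not, and their lowest point among the members lies above the highest point of both other classes.

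The gate genes themselves were graded. Foxq1 (chr13:31556134-31560976, plus strand) stood at 195, 204, 154 and 191 CPM in the members, 68.3, 85.1, 95.2 and 92.8 CPM in Foxq1+ Spock2- cells and 0.0973 to 0.949 CPM in the remaining Cdh5+ cells. Spock2 (chr10:60106219-60135198, plus strand) stood at 121, 176, 75.7 and 169.6 CPM in the members and 0.862 to 3.33 CPM in the remaining Cdh5+ cells. The median member held 3 to 5 Foxq1 UMIs and 1 to 3 Spock2 UMIs, so many members lay near the threshold of 1 UMI. The 86 members with exactly 1 UMI of both genes had Htra3 at 0, 17.6, 28.5 and 61.8 CPM and Mfsd2a at 0, 6.38, 3.57 and 19.3 CPM. The 502 members with at least 2 UMIs of both genes had Htra3 at 108, 97.1, 109 and 119 CPM and Mfsd2a at 57.8, 65.7, 30.1 and 69.0 CPM. Just outside the gate, the 1598 Foxq1+ cells with neither Spock2 nor Gja5 had Htra3 at 7.77 to 14.6 CPM and Mfsd2a at 3.35 to 5.83 CPM. Both markers were highest in the group with most gate UMIs in every library, and the group with 1 UMI of both held only 4 cells in WT replicate 1. The 344 cells with Spock2 but neither Foxq1 nor Gja5 had Htra3 at 4.84 to 17.0 CPM and Tubb3 at 29.3 to 297 CPM, a neuronal gene that was at or near 0 in the members. The gate also left out 69 cells with Foxq1, Spock2 and Gja5 (8, 28, 3 and 30 by library). In them Mfsd2a was at 33.7, 30.1, 24.6 and 36.8 CPM, with 1 UMI in KO replicate 1. Htra3 ranged from 0 to 98.3 CPM and Apod from 0 to 84.2 CPM over these libraries.

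**Figure D2:**
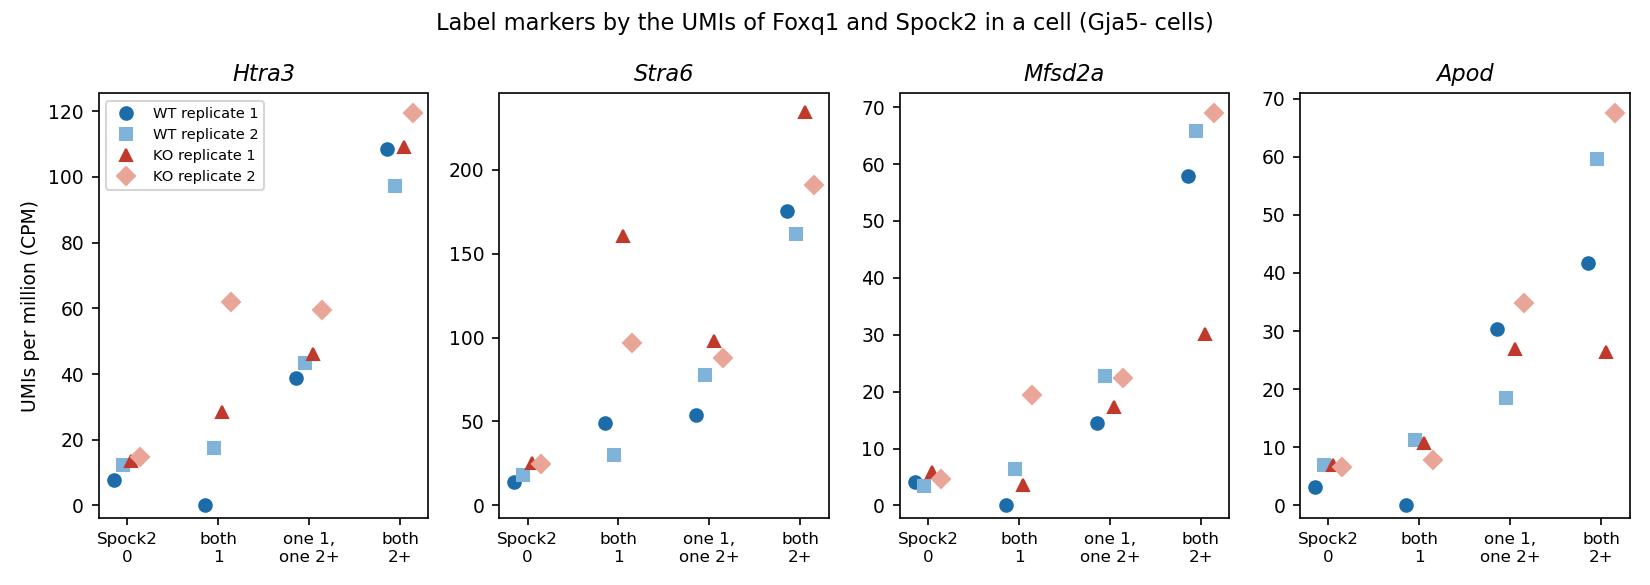
Levels of Htra3, Stra6, Mfsd2a and Apod in CPM (vertical axes) in Foxq1+ Gja5- endothelial cells grouped by their UMIs of the gate genes (horizontal axes), with 1 point per library: no Spock2 UMI, 1 UMI of both Foxq1 and Spock2, 1 of one and at least 2 of the other, and at least 2 of both. The last group (502 cells) lies highest for Htra3, Stra6 and Mfsd2a in every library, with Htra3 between 97.1 and 119 CPM, and for Apod in all but KO replicate 1.

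Cell by cell the marker set was incomplete. Of the 930 members, 65 (6.99%) had no UMI of Htra3, Stra6, Mfsd2a or Apod, and 148 (15.9%) had all 4. All 4 were seen in 18.8%, 15.6%, 6.52% and 17.6% of the members by library, against 0% to 0.806% of Foxq1+ Spock2- cells and 0.0648% to 0.165% of the other Cdh5+ cells. With cells thinned to 10000 UMIs and shallower cells left out, Htra3 was detected in 47.3%, 43.2%, 37.5% and 49.1% of the members, against 7.91% to 10.1% of Foxq1+ Spock2- cells. Without thinning, it was detected in 65.6%, 61.7%, 60.9% and 64.0% of the members. Thinned detection of Mfsd2a was 23.1%, 29.9%, 18.2% and 29.97% in the members and 3.52% to 6.15% in Foxq1+ Spock2- cells.

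The mitochondrial limit removed 376 cells that otherwise passed the gate, and the markers were higher in them. They held Htra3 at 213, 188, 223 and 175 CPM, Mfsd2a at 151, 159, 126 and 189 CPM and the glucose transporter gene Slc2a1 at 1808, 1876, 2029 and 1742 CPM. Each of these values lies above every member library. The removed cells were also shallower. At a mitochondrial share of 10% to under 20% their median depths were 13374.5, 6931, 7571 and 9248 UMIs. At 20% or more they were 7585.5, 4427, 5577 and 4912 UMIs, against 25896.5, 18176.5, 20463 and 17988.5 in the members. The part of depth in the higher marker levels was not tested.

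Against Foxq1+ Spock2- cells of the same libraries, the members carried more RNA of barrier transporters, of the transcription factors known from barrier vessels and of Wnt feedback genes, and less of the genes of cell division. edgeR's quasi-likelihood test with Benjamini-Hochberg adjustment, with library as a block, called 15.0% of 11333 genes higher and 16.4% lower. At least 2-fold, 1.42% were higher and 1.17% lower. The median log2 difference over all tested genes was 0.00. Both classes share their libraries but no cell. Since only the members were required to lack Gja5, 387 of the Foxq1+ Spock2- cells held Gja5 and the comparison was repeated against the 1598 that did not, where 16.9% of 11156 genes were called higher and 18.9% lower.

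Most transporters and receptors of the barrier rose. Of 24 listed genes, which include the marker Mfsd2a, 22 were tested, 20 rose and 1 fell, with a median log2 difference of 1.07 and 11 genes at least 2-fold higher. Slc2a1, the glucose transporter, stood at 809, 736, 679 and 710.5 CPM in the members and 385, 375, 439 and 375 CPM in Foxq1+ Spock2- cells (log2 difference 0.90 ± 0.069, edgeR adjusted p = 0.000357). The 2 groups did not overlap, and the lowest member library lay well above the highest of the other group. Slc7a5, which with Slc3a2 forms the carrier of large neutral amino acids, stood at 58.9, 56.9, 42.6 and 57.9 CPM against 14.4 to 22.5 CPM (log2 difference 1.47 ± 0.068, edgeR adjusted p = 1.67e-14). Slc3a2 stood at 408, 339, 362 and 381 CPM against 137 to 169 CPM (log2 difference 1.25 ± 0.034, edgeR adjusted p = 2.58e-19). Both chains of the carrier were higher in every member library. Tfrc, the transferrin receptor for iron uptake, stood at 84.1, 145, 74.8 and 178 CPM against 18.1, 24.3, 19.4 and 38.5 CPM (log2 difference 2.30 ± 0.071, edgeR adjusted p = 3.43e-14). Its member libraries lay far apart, with WT replicate 2 and KO replicate 2 high, and none reached down to Foxq1+ Spock2- cells.

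Slc1a4, a carrier of small neutral amino acids, stood at 44.8, 36.8, 34.9 and 43.8 CPM against 7.84 to 10.1 CPM (log2 difference 2.15 ± 0.086, edgeR adjusted p = 9.58e-16). Abcb1a, the P-glycoprotein efflux pump, stood at 15.7, 20.7, 7.17 and 18.9 CPM against 2.34, 4.36, 2.73 and 3.11 CPM (log2 difference 2.34 ± 0.15, edgeR adjusted p = 7.89e-12). Lrp8, a lipoprotein receptor that also imports selenoprotein P, stood at 55.5, 76.4, 43 and 67.4 CPM against 20.7 to 27.3 CPM (log2 difference 1.40 ± 0.07, edgeR adjusted p = 5.52e-14). None of these 3 genes overlapped between the classes, and Abcb1a was lowest in KO replicate 1, as Mfsd2a was. The glutamine carriers Slc38a3 and Slc38a5 and the thyroid hormone carrier Slco1c1 rose by 1.78, 3.18 and 2.41 on the log2 scale, from low levels, with the members' Slc38a3 at 14.6, 16.5, 4.03 and 12.9 CPM. The monocarboxylate carrier Slc16a1 fell, with 9.25, 5.27, 10.8 and 7.68 CPM in the members and 12 to 13.3 CPM in Foxq1+ Spock2- cells (log2 difference -0.77 ± 0.14, edgeR adjusted p = 0.000158, and -0.86 against the Gja5-negative cells). Carriers known from the mature barrier were in part at the floor. Slco1a4 had 0 UMIs in all members, and the organic anion carrier Slc22a8 reached at most 1.40 CPM. In 15 of the 22 tested transporters KO replicate 1 was the lowest member library, as it was in 32.8% of all tested genes. Without that library 20 rose and 2 fell, and against the Gja5-negative cells it was also 20 and 2. With the mitochondrial limit at 20%, an alternative chosen after seeing the data, 19 rose and 1 fell.

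All 14 of the listed barrier transcription factors were higher in the members than in Foxq1+ Spock2- cells, with a median log2 difference of 0.59, and 13 passed against the Gja5-negative cells. Foxf2, which vessels of the brain need for pericyte coverage and barrier function, stood at 47.6, 42.5, 29.6 and 44.3 CPM against 11.7, 13.7, 13.4 and 13.8 CPM (log2 difference 1.65 ± 0.089, edgeR adjusted p = 3.91e-13). Foxl2 stood at 29.4, 27.7, 17.5 and 25.7 CPM against 12.3 to 14.5 CPM (log2 difference 0.96 ± 0.10, edgeR adjusted p = 4.19e-08). Both were lowest in KO replicate 1 and without overlap. The SoxF factors Sox7, Sox17 and Sox18, general to endothelium, rose by 0.60, 0.34 and 0.35 on the log2 scale. In 10 of these 14 genes KO replicate 1 was the lowest member library, and all 14 rose without it. With DESeq2, with a gate of 2 UMIs or without WT replicate 2, 11 of the 14 passed, and without library as a block 9 did. The homeobox factor Six3 of the forebrain and eye was outside the lists and stood at 7.29, 11.2, 16.6 and 12.1 CPM against 1.24, 1.33, 3.29 and 1.88 CPM (log2 difference 2.69 ± 0.18, edgeR adjusted p = 1.36e-11).

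Hox genes, which mark position along the trunk, went the other way. Of 24 tested Hox genes (a list added after the counts were seen) none rose and 12 fell, with a median log2 difference of -0.35. Against the Gja5-negative cells, 0 rose and 12 fell of 23. Against the other Cdh5+ cells 1 rose and 16 fell of 32.

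Wnt pathway genes were described in 2 lists, which both hold Lef1 and whose difference was not tested. Of the receptors and signal transducers 5 rose and 3 fell of 15 tested, with a median log2 difference of 0.06, near that of all genes. Fzd6, a Frizzled receptor, stood at 31.4, 42.6, 26 and 38.1 CPM against 15.2, 21.6, 14.2 and 21.5 CPM (log2 difference 0.91 ± 0.075, edgeR adjusted p = 5.19e-10). Tspan12, the Fzd4 co-receptor, rose by 0.36 on the log2 scale, while Fzd4 itself was lower (log2 difference -0.24 ± 0.074, edgeR adjusted p = 0.0161). Against the Gja5-negative cells the Fzd4 log2 difference was -0.14, with an edgeR adjusted p of 0.186. The Wnt7 co-receptors Adgra2 and Reck did not pass (0.03 and -0.38, edgeR adjusted p of 0.83 and 0.0514).

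Of the target and feedback genes 9 rose and 2 fell of 11 tested, with a median of 0.55. Lef1, the transcription factor and target, stood at 82.4, 113, 92.7 and 97.3 CPM against 46.3, 66.5, 67.4 and 59 CPM (log2 difference 0.71 ± 0.053, edgeR adjusted p = 9.92e-11). Nkd1, a feedback inhibitor, stood at 133, 138, 130.4 and 125 CPM against 48.1, 43.7, 62 and 43 CPM (log2 difference 1.47 ± 0.072, edgeR adjusted p = 2.65e-09). Tnfrsf19, whose promoter window is printed above, stood at 39.2, 38.4, 46.1 and 41.3 CPM against 22.7, 19.4, 26.9 and 21.1 CPM (log2 difference 0.90 ± 0.071, edgeR adjusted p = 3.11e-10). In these 3 genes every member library exceeded every library of Foxq1+ Spock2- cells. Axin2, the general feedback inhibitor of the pathway, was closer, at 10.9, 12.7, 10.3 and 10.9 CPM against 6.93 to 8.56 CPM (log2 difference 0.55 ± 0.12, edgeR adjusted p = 0.00113). It did not pass with DESeq2 (adjusted p = 0.0707) or with 2 UMIs required of both gate genes (0.0913). The cell cycle gene Ccnd1 (-0.32, and -0.46 against the Gja5-negative cells) and the Wnt inhibitor Dkk2 were the genes that fell. The Dkk2 value turned from -2.74 to 0.80 against the Gja5-negative cells, where it did not pass (edgeR adjusted p = 0.205).

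**Figure D3:**
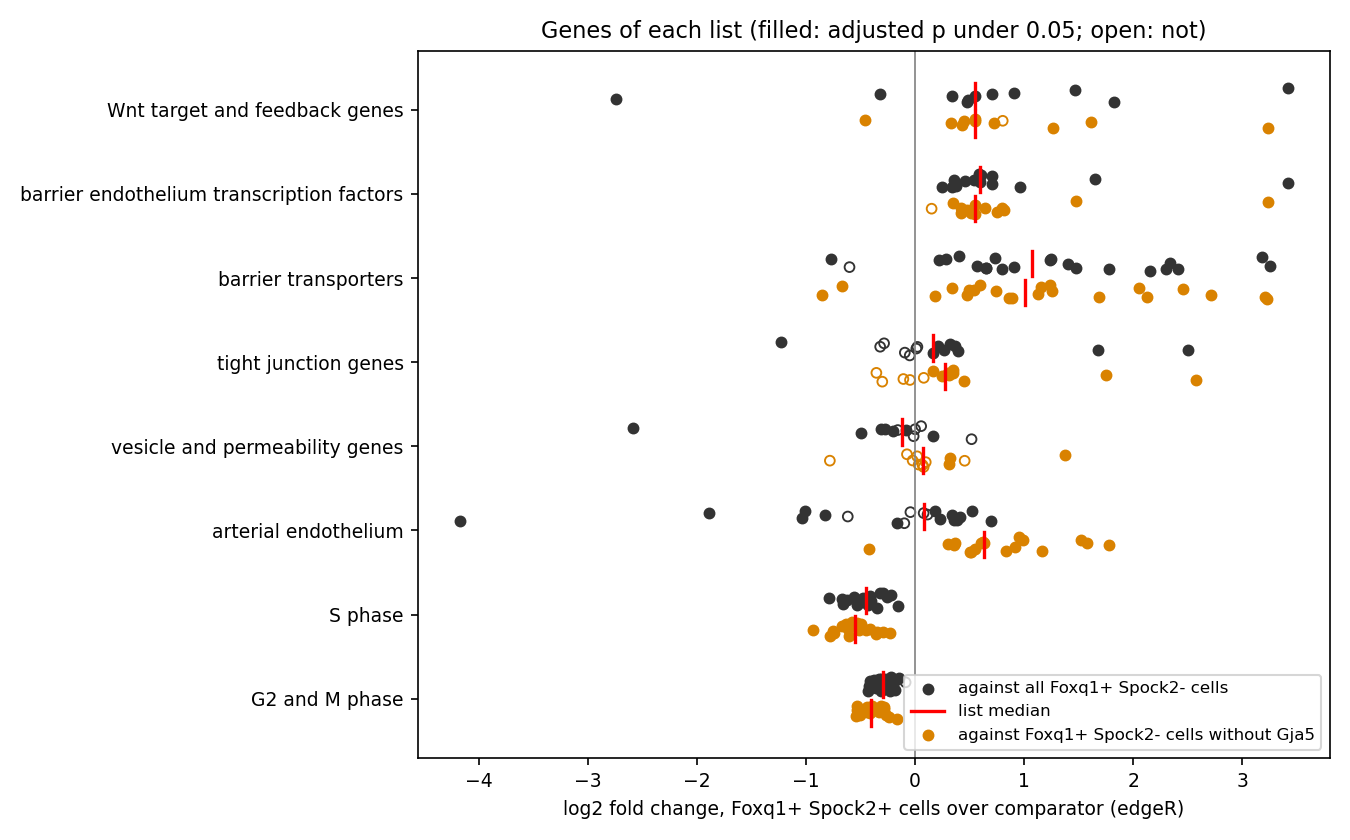
Log2 difference of each gene of 8 gene lists (horizontal axis) between Foxq1+ Spock2+ cells and all Foxq1+ Spock2- cells (black) or those without Gja5 (orange), with filled points past an edgeR adjusted p of 0.05 and a red line at the median of each list. Barrier transporters and transcription factors lie to the right with either comparison group, S phase and G2/M genes to the left, and the arterial list shifts from a median of 0.08 to 0.63.

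Of 15 tested tight junction genes 8 rose and 1 fell, with a median log2 difference of 0.17. Against the Gja5-negative cells 9 rose and none fell of 14 (median 0.28), and 6 rose and none fell with DESeq2. Without library as a block 4 rose and 1 fell. Lsr, angulin-1 of the contacts between 3 cells, stood at 42.6, 36.2, 25.5 and 33.9 CPM against 5.1, 6.54, 5.45 and 6.55 CPM (log2 difference 2.50 ± 0.11, edgeR adjusted p = 4.06e-15). Jam2, a junctional adhesion molecule, stood at 19.3, 21.8, 7.62 and 22.5 CPM against 4.54 to 6.61 CPM (log2 difference 1.67 ± 0.13, edgeR adjusted p = 2.21e-10). Both classes were separate for these genes, with KO replicate 1 the lowest member library. Cldn5, the main claudin of endothelium, was already abundant and rose from 925, 782, 909 and 899.8 CPM to 1312, 950.1, 999 and 1167 CPM (log2 difference 0.32 ± 0.05, edgeR adjusted p = 0.00215). Among cells of 10000 to 40000 UMIs the Cldn5 difference was 0.37 and did not pass (edgeR adjusted p = 0.0807). Ocln, the occludin gene, was near the floor and lower in the members (1.12, 1.35, 0.896 and 1 CPM against 1.79 to 4.09 CPM, log2 difference -1.23 ± 0.31, edgeR adjusted p = 0.00329). It was the gene of the list that fell, and it was too low to be tested against the Gja5-negative cells.

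Genes of vesicles and permeability depended on the Gja5 condition. Plvap, which forms the diaphragms of vesicles and fenestrae and is lost from mature barrier vessels, stood at 604, 491, 542 and 503 CPM in the members and 636, 512, 588 and 532 CPM in Foxq1+ Spock2- cells. Its log2 difference was -0.09 ± 0.027 (edgeR adjusted p = 0.0149), and 0.03 with an adjusted p of 0.427 against the Gja5-negative cells. Without WT replicate 1, WT replicate 2 or KO replicate 2 it no longer passed (edgeR adjusted p of 0.0541, 0.0567 and 0.0867). Of the 12 listed genes 1 rose and 6 fell (median -0.12), but 3 rose and none fell against the Gja5-negative cells (median 0.07). Cavin2, a coat protein of caveolae, went from a log2 difference of -2.59 to -0.78 (edgeR adjusted p = 0.0586) between these comparisons, and Vwf from -0.50 to 1.38. Against the name of a barrier-like capillary, Plvap was present in every member library and the mature carriers Slco1a4 and Slc22a8 were at or near 0. The labelled tissue is the AGM, and the transporter and transcription factor lists were chosen with results of these data known.

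The retinoid and lipid lists moved in part. Of 12 tested retinoid genes 4 rose and 1 fell (median 0.21). Cyp26b1, which breaks down retinoic acid, stood at 55.8, 57.5, 77.5 and 60 CPM against 31.8 to 51.6 CPM (log2 difference 0.73 ± 0.06, edgeR adjusted p = 5.66e-10). Stra6 and the retinal reductase gene Dhrs3 (log2 difference 0.57) were also among the genes that rose. Rarb, a retinoic acid receptor, fell (log2 difference -0.65 ± 0.18, edgeR adjusted p = 0.00616), and against the Gja5-negative cells it was at -0.41 with an adjusted p of 0.0984. Of 14 lipid genes 6 rose and 3 fell. Apoe, the lipoprotein of brain and plasma, stood at 63.6, 62.1, 61.4 and 62.7 CPM against 95.7 to 114 CPM (log2 difference -0.71 ± 0.052, edgeR adjusted p = 6.2e-11), and the difference was -0.26 against the Gja5-negative cells (adjusted p = 0.0146).

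Of 22 tested genes of the basement membrane and matrix, a list that includes the marker Htra3, 10 rose, none fell and 12 did not pass (median 0.18). Against the Gja5-negative cells 15 rose and none fell (median 0.44). With the mitochondrial limit at 20%, 16 rose and 1 fell, and without library as a block 6 rose. Agrn, the heparan sulfate proteoglycan agrin, stood at 122, 118, 83.8 and 111 CPM against 51.7 to 59.2 CPM (log2 difference 0.98 ± 0.056, edgeR adjusted p = 1.01e-12). Nid1, which links laminin and collagen IV, stood at 236, 280.4, 239.7 and 289.6 CPM against 159.7 to 192 CPM (log2 difference 0.55 ± 0.037, edgeR adjusted p = 1.49e-11). Pdgfb, the ligand that recruits pericytes, stood at 101, 107, 91.8 and 106 CPM against 61.3 to 75.7 CPM (log2 difference 0.62 ± 0.057, edgeR adjusted p = 1.1e-08). The spread over member libraries was small for Nid1 and Pdgfb, and Agrn was lowest in KO replicate 1. Among sprouting genes 10 rose and 2 fell of 15 (median 0.52), with the peptide hormone gene Adm higher by 0.89 and Rgcc by 0.84 on the log2 scale, while the tip cell channel subunit Kcne3 (-0.45) and the endothelin receptor Ednrb (-1.04) fell, also against the Gja5-negative cells (-0.53 and -1.01). Igfbp7, a secreted protein of capillary matrix, stood at 302, 346, 155 and 379.9 CPM against 44.8, 67.1, 46.7 and 74.3 CPM (log2 difference 2.34 ± 0.15, edgeR adjusted p = 0.00186), and was lowest in KO replicate 1.

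Signalling genes outside the Wnt pathway moved in both directions. Of 15 Notch genes 6 rose and 2 fell (9 and 2 against the Gja5-negative cells), with the ligand gene Jag1 higher by 0.69 ± 0.061 and the glycosyltransferase gene Lfng by 0.83 ± 0.10 on the log2 scale. Of 13 VEGF, angiopoietin and apelin genes 5 rose and 5 fell (5 and 2 against the Gja5-negative cells), with the receptor genes Kdr (log2 difference 0.33 ± 0.059) and Tie1 (0.34 ± 0.04) among the higher. Of 21 BMP and TGF-beta genes 10 rose and 6 fell (10 and 3 of 20 against the Gja5-negative cells), with the ligand genes Bmp2 at a log2 difference of 0.45 ± 0.13 and Bmp4 at -0.85 ± 0.16. The flow-induced factor gene Klf2 stood at 498, 531, 369 and 422 CPM against 253 to 351 CPM (log2 difference 0.64 ± 0.082, edgeR adjusted p = 0.00421). The hypoxia and glycolysis list had 3 higher and 8 lower of 18 in either comparison (medians -0.18 and -0.20). Although Slc2a1 of that list rose, the glycolytic enzyme genes Ldha, Pgk1 and Eno1 fell by 0.33, 0.33 and 0.32 on the log2 scale.

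Other genes with the largest rises were Ccdc141 (log2 difference 2.74 ± 0.14), the neuropeptide gene Ucn (log2 difference 2.49 ± 0.28) and the protease gene Ctsw (log2 difference 2.35 ± 0.13), with edgeR adjusted p of 9.09e-14, 7.33e-05 and 4.78e-13. Ucn stood at 8.41, 11.9, 21.5 and 11.7 CPM in the members, highest in KO replicate 1, against 0.413, 3.56, 1.93 and 2.14 CPM in Foxq1+ Spock2- cells.

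The arterial list depended on the Gja5 condition. Against all Foxq1+ Spock2- cells 8 genes rose and 6 fell of 19 (median 0.08). Against the Gja5-negative cells 17 rose and 1 fell of 18 (median 0.63). The connexin gene Gja4 moved from a log2 difference of 0.35 to 1.57, the Notch target Hey1 from 0.41 to 1.16, Hey2 from -1.005 to 0.99 and the chemokine receptor gene Cxcr4 from 0.52 to 1.78. Tmem100, a target of ALK1 signalling in arteries, reversed from -1.89 to 0.83. Igfbp3 was the gene that was lower in both (-1.03 and -0.42). Axon guidance genes that vessels share with neurons depended on it as well, with 5 higher and 2 lower of 16 in the first comparison and 10 higher and none lower in the second.

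Among the genes with the largest falls, those that could be compared fell less against the Gja5-negative cells. Nkx2-3, a homeobox factor, stood at 0, 0.811, 1.34 and 0.556 CPM in the members and 5.79, 6.81, 16.8 and 13.7 CPM in Foxq1+ Spock2- cells (log2 difference -4.01 ± 0.27, edgeR adjusted p = 1.3e-11). It was too low to be tested against the Gja5-negative cells, so its fall cannot be told apart from the Gja5 condition of the gate. The fibrillin gene Fbn1 went from a log2 difference of -2.51 to -0.70 (edgeR adjusted p = 0.0109), Tm4sf1 from -2.22 to -0.52 (0.000386) and the lymphatic factor Foxc2 from -2.14 to -1.15 (0.000176). Those falls remained past the threshold. The Wnt inhibitor gene Sost (-0.52, edgeR adjusted p = 0.109) and Gata6 (-0.35, 0.283) no longer passed, and Ltbp4 and Slc45a4 turned to 0.46 and 0.41.

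Cell division genes were lower in the members with either comparison group. Of 20 S phase genes all 20 fell, with a median log2 difference of -0.45, and of 20 G2 and M phase genes 19 fell (median -0.30). Against the Gja5-negative cells all 20 of either list fell (medians -0.55 and -0.40). Cdc6, which loads the replicative helicase, stood at 19.6, 12.2, 19.3 and 12.9 CPM against 27.3, 25.6, 28.7 and 22.6 CPM (log2 difference -0.79 ± 0.10, edgeR adjusted p = 5.06e-07). Mki67, the proliferation marker, stood at 132, 139.7, 115 and 155 CPM against 156, 183, 135 and 175 CPM (log2 difference -0.27 ± 0.042, edgeR adjusted p = 1.2e-05). The members were lower in every library for both genes, although the ranges over libraries of Mki67 overlapped. Median depth per cell was also lower in the members of all 4 libraries, and the doublet share in 3. Among cells of 10000 to 40000 UMIs 20 S phase and 17 G2 and M phase genes fell, and with doublets removed 20 and 19 did. Without library as a block 14 and 5 passed.

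Against all other Cdh5+ cells, the log2 differences of the barrier and Wnt genes named next were larger. In this comparison 22.5% of 13810 genes were called higher and 26.1% lower, with 4.1% at least 2-fold higher and 6.76% at least 2-fold lower. Its member counts are those of the comparison above, so the results of both are not independent. Foxf2 stood at 0.889 to 1.67 CPM in the other cells, a log2 difference of 5.06 ± 0.12 (edgeR adjusted p = 6.68e-25). On the log2 scale Foxl2 differed by 4.10 ± 0.16, Igfbp7 by 4.37 ± 0.048, the kinase gene Prkcb by 4.48 ± 0.17 and the intermediate filament gene Synm by 3.98 ± 0.18. On that scale Slc7a5 and Slc2a1 differed by 3.70 ± 0.081 and 1.80 ± 0.037, Nkd1 by 3.85 ± 0.058 and Lef1 by 2.05 ± 0.054. Of the lists, 11 Wnt target genes rose and 2 fell of 14 (median 2.15), 13 of 14 transcription factors rose (median 0.86), and 19 transporters rose and 2 fell of 22 (median 2.05). The median over all tested genes was -0.02.

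Genes of sinusoidal and lymphatic endothelium were low in the members, with 1 higher and 9 lower of 10 (median -2.57). Oit3 stood at 7.85, 4.06, 1.34 and 2.67 CPM in the members and 59.2, 32.4, 30.6 and 28.9 CPM in the other cells (log2 difference -3.21 ± 0.12, edgeR adjusted p = 1.84e-20). Lyve1, the hyaluronan receptor of lymphatic and sinusoidal endothelium, stood at 2.8, 6.08, 0.896 and 2.34 CPM against 38.3, 32.9, 13.2 and 24 CPM (log2 difference -3.02 ± 0.14, edgeR adjusted p = 1.01e-13). Neither gene overlapped between the classes. Against Foxq1+ Spock2- cells 6 of 8 sinusoidal genes fell, but 0 of 7 did among cells of 10000 to 40000 UMIs and 2 of 8 did with DESeq2. The smooth muscle actin gene Acta2 (-5.73) and globin genes led the lower genes, and all 10 tested erythroid genes fell (median -4.50). The other Cdh5+ cells could hold Gja5 while the members could not, and this comparison was not repeated without the Gja5+ cells. Their part in the falls of this comparison, that of Acta2 among them, was not tested. Erythroid markers summed to 42.3 to 239 CPM in the members and 303 to 5397 CPM in the other cells. Alas2 and Gata1 were at 0 in the members. The part of erythroid cells in the other class, and of their RNA, in these values was not tested.

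The share of Foxq1+ Spock2+ cells among Cdh5+ cells differed between the KO libraries more than between genotypes. The WT libraries held 4.73% (95% exact binomial interval 3.85 to 5.75) and 4.71% (4.23 to 5.23), KO replicate 1 held 2.59% (2.09 to 3.17) and the other KO library 6.91% (6.28 to 7.59). The intervals cover counting error only. Both KO libraries lay outside the WT range, 1 below and 1 above. Mean shares were 4.72% ± 0.016 (SD, n = 2) for WT and 4.75% ± 3.05 (SD, n = 2) for KO. They differed by 0.032 percentage points (p = 1 by a two-sided exact permutation test, which cannot go below 0.33 here). Among Cdh5+ cells of at least 10000 UMIs, thinned to 10000 UMIs for the other gate genes, the shares were 2.59%, 3.43%, 1.29% and 4.58%. In these KO replicate 1 was again lowest and KO replicate 2 highest. The shallower Cdh5+ cells left out numbered 59, 804, 224 and 549. Without KO replicate 1 the difference was 2.19 percentage points and without KO replicate 2 it was -2.13. Of the Foxq1+ Gja5- cells, 38.1%, 34.5%, 23.4% and 44.7% held Spock2. With a mitochondrial limit of 20% the shares were 5.01%, 4.91%, 2.68% and 6.93%. At a limit of 5% they were 1.45%, 2.98%, 1.08% and 3.08%. The WT libraries were thus nearly level under some filters only, and the shares depended on the mitochondrial limit.

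**Figure D4:**
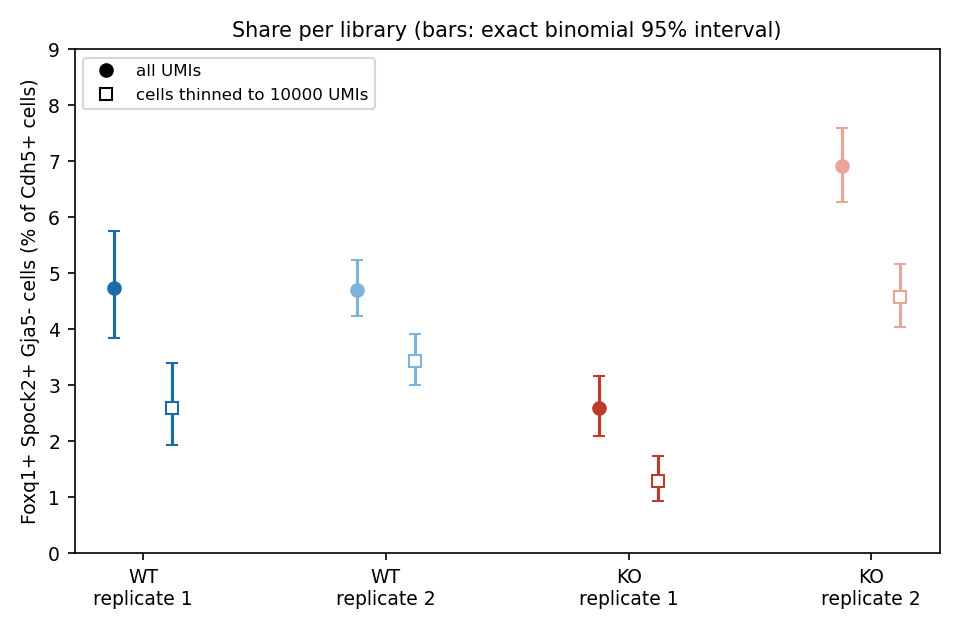
Share of Foxq1+ Spock2+ cells among Cdh5+ cells in percent (vertical axis) in each of the 4 libraries (horizontal axis), with all UMIs and with cells thinned to 10000 UMIs, shallower cells left out. Bars are exact binomial 95% intervals. The WT libraries lie at 4.73% and 4.71%, and the KO libraries at 2.59% and 6.91%.

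Between KO and WT members, edgeR's quasi-likelihood test called 2 of 10889 genes (0.0184%), with 59 genes higher and 70 lower at an unadjusted p under 0.05. DESeq2 called 4, and 5 to 32 passed in edgeR with 1 library left out. Mxra7 (chr11:116803062-116828046, minus strand), a gene named for matrix remodelling, fell, at 113, 114, 17.9 and 17.2 CPM (log2 difference -2.66 ± 0.18, edgeR adjusted p = 2.61e-05). The KO libraries lay far below the WT libraries. Wdfy1 (chr1:79702262-79776143, minus strand), an endosomal adaptor, rose, at 12.9, 13.9, 75.3 and 76.7 CPM (log2 difference 2.52 ± 0.19, edgeR adjusted p = 5.17e-05). The pairs of libraries were nearly level within each genotype. In Foxq1+ Spock2- cells, where 3 of 12032 genes passed (0.0249%), the same genes differed by -2.47 ± 0.17 and 2.38 ± 0.16 on the log2 scale (edgeR adjusted p of 0.00142 and 0.00142). In the other Cdh5+ cells Mxra7 stood at 55.9, 57.6, 15.1 and 15.1 CPM.

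The interaction of class and genotype was past the threshold for Mxra7, whose fall was larger in the members than in the other Cdh5+ cells (difference of log2 differences -0.77 ± 0.14, edgeR adjusted p = 0.000101), and not for Wdfy1 (0.11 ± 0.16, adjusted p = 1). The Mxra7 interaction was not past the threshold without KO replicate 2 (-0.74, edgeR adjusted p = 0.172), with a gate of 2 UMIs (-0.58, 0.926) or with DESeq2 (adjusted p = 0.292). In all, 14 of 14651 genes (0.0956%) passed this interaction test with edgeR, and 0 with DESeq2, which had 56 higher and 41 lower at an unadjusted p under 0.05. In edgeR 304 were higher and 239 lower at that limit, and the number called was 7 without KO replicate 1 or WT replicate 1 and 50 and 65 without the other KO and WT library.

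Rnaset2b (chr17:6970634-7011299, plus strand), a ribonuclease gene with the near-identical copy Rnaset2a, stood at 12.6, 12.4, 3.58 and 1.11 CPM in the members (log2 difference -2.82 ± 0.43, edgeR adjusted p = 0.0863). Reads of both copies may have been split in counting, so its level is uncertain. On all 4 libraries it passed with DESeq2 (adjusted p = 0.0415), and with edgeR at a gate of 2 UMIs, a mitochondrial limit of 20% or no filter on low counts (adjusted p of 0.0144, 0.0225 and 1.25e-08). It also passed without KO replicate 1, WT replicate 1 or WT replicate 2 (edgeR adjusted p of 2.59e-09, 1.56e-05 and 0.000124) and in Foxq1+ Spock2- cells (log2 difference -3.31 ± 0.33, adjusted p = 0.0175). Mettl23 (chr11:116843278-116854263, plus strand) is a methyltransferase gene near Mxra7. It stood at 69.2, 70.4, 34 and 37.7 CPM (log2 difference -0.91 ± 0.17, edgeR adjusted p = 0.299). It passed in edgeR without WT replicate 1 (adjusted p = 0.0103), without WT replicate 2 (0.0274) and without the filter on low counts (0.00568). Rnaset2b and Mettl23 were lower in each KO library than in each WT library. Among higher genes, 9030025P20Rik stood at 0.841, 1.62, 6.72 and 6.01 CPM (log2 difference 2.23 ± 0.45, edgeR adjusted p = 0.503) and the mesenchymal factor gene Twist1 at 2.24, 2.16, 13.4 and 5.68 CPM (log2 difference 1.97 ± 0.47, edgeR adjusted p = 1). Without the filter on low counts they passed (edgeR adjusted p of 0.0101 and 0.00632), and Twist1 also without KO replicate 2 (0.00116). In KO replicate 1, 20 of the 30 Twist1 UMIs came from 1 cell. In Foxq1+ Spock2- cells the further genes with the smallest p were Npw (0, 0.106, 2.04 and 2.53 CPM), Nkx2-3 (log2 difference 1.25 ± 0.20) and the ribosomal gene Rps2 (log2 difference -0.82 ± 0.12), with edgeR adjusted p of 0.202, 0.277 and 0.19. Rnaset2b, 9030025P20Rik, Npw and Rps2 all lie on chromosome 17, while Twist1 and Nkx2-3 lie on chromosomes 12 and 19 and miR-223 on X. The part of position in these genotype differences was not tested.

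No gene of the barrier lists passed between genotypes in the members. That was 0 of 4 label markers, 0 of 21 tested transporters (median log2 difference -0.14), 0 of 14 transcription factors (-0.16) and 0 of 20 S phase genes (0.14). Of all 10889 tested genes 0.0184% passed, so a count of 0 does not set these lists apart from other genes. The median over all tested genes was 0.00. Mfsd2a stood at 39.0 and 46.9 CPM in WT and at 20.2 and 47.1 CPM in KO (log2 difference -0.23 ± 0.29, edgeR adjusted p = 1). Slc2a1 differed by -0.12 ± 0.13 and Abcb1a by -0.30 ± 0.33 on the log2 scale (edgeR adjusted p of 1 and 1). A p that misses the threshold does not show that these genes were alike, and in simulated data of this design 41.7% of genes changed by 1 on the log2 scale and 96.9% of those changed by 2 were recovered, over 10851 genes. The simulation gave every gene the same setting of spread between libraries, which was not estimated from these data. For genes whose KO libraries lay far apart, such as Mfsd2a, and for low genes, these shares may overstate the recovery. Of 11 tested genes described as miR-223 targets none passed (median -0.02), beside that 0.0184% of all tested genes.

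**Figure D5:**
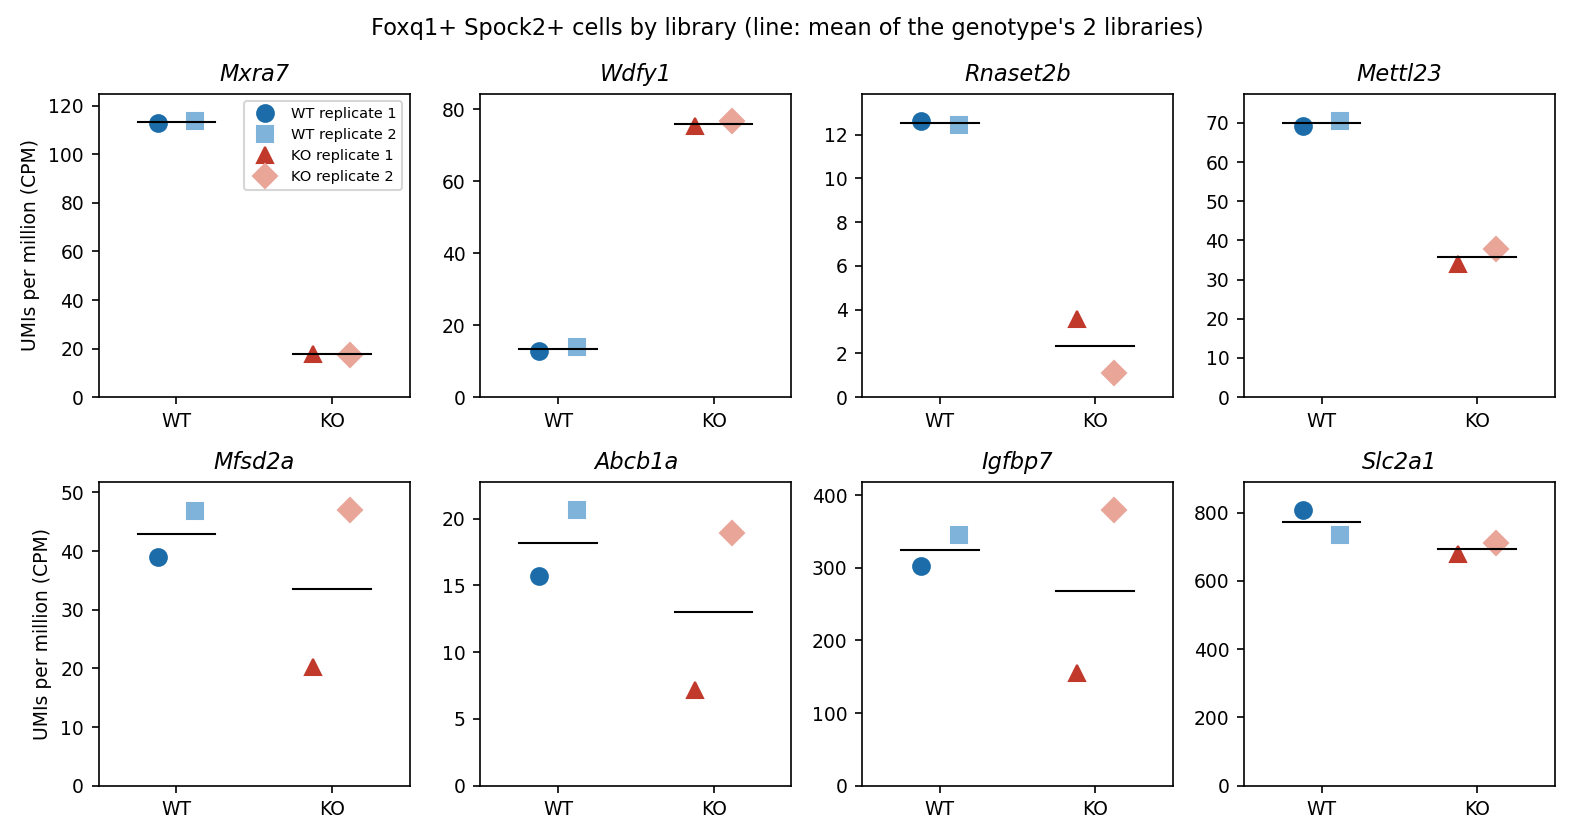
Levels in Foxq1+ Spock2+ cells in CPM (vertical axes) of 8 genes in WT and KO libraries (horizontal axes), with 1 point per library and a line at the mean of the 2 libraries of a genotype. Mxra7 and Wdfy1 passed the test; for Mfsd2a, Abcb1a and Igfbp7 the KO libraries are far apart, with KO replicate 1 lower.

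The deletion could not be checked in these cells. F630028O10Rik, the annotated transcript that overlaps Mir223 on chromosome X, had 0 UMIs in the members of all 4 libraries. Xist, the transcript of the inactive X chromosome, stood at 237, 254, 0 and 277 CPM, and was thus not seen in KO replicate 1. The KO libraries thus differed in Xist. Its part in the low levels of KO replicate 1 was not tested. Nor was its part in the genotype values of genes on chromosome X, such as Bex1, Maged2 and Gpc3.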

How the data were processed

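Raw UMI counts were deposited by the authors as 1 gene-by-barcode matrix for each of 4 libraries of the 10x Genomics 3' kit, written by Cell Ranger 3.1.0 per the file headers. The submitters' processing notes also name Seurat 4 and give no role for it. Aligner and genome build: not given in the sources used here. The matrices hold 31053 genes, of which 30934 matched GENCODE M21 by identifier, and 31521 barcodes, of which 20836 passed the filters (1000 genes, 10% mitochondrial UMIs over 13 genes). Libraries held 95158639, 181682389, 109713066 and 167542930 UMIs, and the members 3567684, 7396921, 2232040 and 8985707, so KO replicate 1 gives the least precise member values.

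UMIs of a class were added up within each library, and these sums were tested with edgeR 4.0.16 (quasi-likelihood, robust, TMM, filterByExpr, Benjamini-Hochberg threshold 0.05) in R 4.3.3; library was a block in comparisons of classes within libraries, and KO was compared with WT over 2 against 2 libraries without a block. A log2 difference is given with an approximate standard error, its size divided by the square root of the edgeR F statistic. The p-value also depends on degrees of freedom, which can differ between genes, so equal errors can go with unlike p-values. DESeq2 1.42.0 was an alternative. Shares were compared by an exact permutation test over libraries, with scipy 1.17.1. Doublets were scored against simulated ones (2 per cell, 2000 variable genes, 30 principal components) and called at 0.8% per 1000 barcodes; they were kept, except in 1 alternative. The edgeR script was tested on simulated data.

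The members and all gene lists were chosen with earlier results of these data known, so no list is independent evidence of its direction. Genes named were up to 12 higher and 12 lower past the threshold by size of change, with at least 10 CPM in the higher class and the same direction in every library (for genotype, both KO libraries beyond both WT libraries); where fewer than 3 passed, the 3 with the smallest raw p, as values; up to 4 genes past the threshold from every list; and a fixed set of marker, Wnt, transporter and miR-223 target genes whatever their test. Other genes named as examples were chosen after their values were seen. The 4 gate genes were not tested, and some results are not reported here. Alternatives were another comparison group without Gja5, a gate of 2 UMIs, other mitochondrial limits, cells of 10000 to 40000 UMIs, doublets removed, no filter on low counts, no block or a replicate block, and each library left out.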

Additional observations from a re-analysis of the deposited data

Results flagged for a closer look

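For 14 genes the KO against WT difference in Foxq1+ Spock2+ cells differed from that in the other Cdh5+ cells, by the edgeR class-by-genotype interaction with library as a block (adjusted p under 0.05 over 14651 genes). The values below are the log2 difference in the members minus that in the other cells. DESeq2 called none of them (56 genes higher and 41 lower at an unadjusted p under 0.05).

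Mxra7 (-0.77, adjusted p = 0.000101) was lower in KO in both classes and more so in the members, where 30 to 282 cells per library carried its UMIs. The calcium channel gene Cacna1e (-2.04, adjusted p = 0.021) stood at 3.08, 2.57, 4.03 and 3.45 CPM in the members and at 0.892, 0.726, 4.56 and 4.22 CPM in the other cells. Its interaction did not pass in 8 alternatives, namely with each library left out, with DESeq2, among cells of 10000 to 40000 UMIs, with doublets removed and with a gate of 2 UMIs (adjusted p from 0.0998 to 1). Bex1 (-0.55), Maged2 (0.34), the imprinted gene Meg3 (-0.29) and the fibronectin gene Fn1 (-0.30) had small values, with edgeR adjusted p of 0.00273, 0.00149, 0.0323 and 0.014. Bex1 and Maged2 lie on chromosome X, as does Gpc3, named below. In WT replicate 1, 1 cell held 71 of the members' 279 Bex1 UMIs and 146 of 996 Fn1 UMIs. The cyclin gene Ccnd2 (0.57, adjusted p = 6.29e-05) had 228 of its 777 UMIs of KO replicate 2 in 1 cell.

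Genes of mesenchyme and epithelium rested on few cells. Twist1, a mesenchymal factor (1.86, adjusted p = 6.29e-05), stood at 2.24, 2.16, 13.4 and 5.68 CPM in the members and 27.8, 6.47, 24.2 and 9 CPM in the other cells, and 1 cell held 20 of the 30 Twist1 UMIs of KO replicate 1. Gpc3 (1.73, adjusted p = 6.29e-05) had 16 of 18 UMIs of WT replicate 1 in 1 cell. The collagen gene Col3a1 (1.82, adjusted p = 0.00135) had 8 of 13 UMIs of KO replicate 1 in 1 cell, and the retinaldehyde dehydrogenase gene Aldh1a2 (3.49, adjusted p = 0.0037) had 12 of 24. Krt8 (-3.87, adjusted p = 0.000101) and Cldn6 (-10.52, adjusted p = 0.021) had all 40 and all 39 UMIs of WT replicate 1 in 1 cell. Anxa1 (-1.66, adjusted p = 0.00671) was the other gene that passed. The part of these single cells in the interaction was not tested.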

How the results depend on the processing

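The count of genes that differed from Foxq1+ Spock2- cells was 3559. It was 1739 with DESeq2, 1061 without library as a block and 2370 to 3757 with 1 library left out, the lowest without WT replicate 2. Against the other Cdh5+ cells it was 6717, 3864 without the block and 5033 to 6581 with 1 library left out. Of 467 checks on 39 called and named genes of the first comparison 433 kept direction and call, 29 lost the call and 5 changed sign. Ltbp4 (0.46), Slc45a4 (0.41), Tmem100 (0.83) and Plvap (0.03) changed sign against the Gja5-negative cells, and Plvap (0.068) with a gate of 2 UMIs. Of 438 checks on 40 genes of the second comparison 428 kept both and 10 lost the call.

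Between KO and WT members, 2 genes passed, 4 with DESeq2, 4 with a gate of 2 UMIs, 13 without the filter on low counts and 5 to 32 with 1 library left out (KO replicate 1 out, 5; KO replicate 2 out, 22; WT replicate 1 out, 14; WT replicate 2 out, 32). With 1 library left out, the lone library of a genotype is assumed to vary like the pair. In Foxq1+ Spock2- cells it was 3, 9 with DESeq2, 44 without the filter and 4 to 21 with 1 library left out (21, 10 and 19 without the first or second WT library or KO replicate 2). With the replicate number as a replicate block 20 and 22 genes passed, in the members with Rnaset2b (adjusted p = 0.000211), Mettl23 (0.00044), 9030025P20Rik (0.0165) and Twist1 (0.0165) among them. The labels do not say that the number pairs libraries, and deviations of same-numbered member libraries correlated at 0.31 across 10889 genes, which are not independent replicates. Mxra7 and Wdfy1 passed in the members in all 22 checks.

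The interaction called 14 genes, 3 among cells of 10000 to 40000 UMIs, 0 with DESeq2, 3 with a gate of 2 UMIs, 6 with a mitochondrial limit of 20% (chosen after seeing the data) and 7 to 65 with 1 library left out. Of 138 checks on the 14 genes 52 kept direction and call, 83 lost the call and 3 changed sign, and 0 genes kept the call in every check. Krt8 changed sign among cells of 10000 to 40000 UMIs (5.88), with a gate of 2 UMIs (5.50) and without WT replicate 1 (5.32), and ranged from -4.83 to 5.32 with 1 library left out. The KO minus WT share was 0.032 percentage points, -0.417 with a gate of 2 UMIs, -0.133 and -0.156 with mitochondrial limits of 5% and 20%, -0.077 in thinned cells and -2.13 to 2.19 with 1 library left out. Where the cause of a change is not stated, the cause was not tested. The 92 members of KO replicate 1 had the fewest summed UMIs (2232040), so their low genes are the least precise. Their median depth per cell (20463 UMIs) was not the lowest.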
